A study of Mus musculus with 6 samples.

Results

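The genes described here encode 8 proteins that turn early recombination intermediates of meiosis into crossovers: Hfm1, Msh4, Msh5, Tex11, M1ap, Mlh3, Rnf212 and Ccnb1ip1. They were matched by exact symbol, and all 8 were found among the 55353 genes of each library, with 46 annotated isoforms among 142647. Whole testes were taken at postnatal day 14 from 3 control mice and from 3 mice of the genotype Rnu11-cKO, referred to as mutants, and their total RNA was depleted of ribosomal RNA and sequenced with strand information. U11, the product of Rnu11, is part of the machinery that recognises minor introns. No source used here gives a Cre driver, the controls' full genotype or the cells that lost the gene. The genes were selected on their TPM differences between these same groups, above all that of Hfm1. Those differences are therefore given as values, with no p-value.

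Meiotic cells cut their own DNA and repair the breaks on the homologous chromosome, and a minority of these events mature into crossovers that hold homologues together until the first division. A group of proteins named ZMM stabilises the joined DNA: HFM1 is a DNA helicase, MSH4 and MSH5 form a clamp that slides on the joint, and TEX11 works with them, as does M1AP. RNF212 and CCNB1IP1 (HEI10) are RING-finger proteins that select which sites are kept, and MLH3 is a subunit of the endonuclease that resolves the final joints. In the mouse these genes act in prophase spermatocytes, which the first wave of spermatogenesis has produced by the second week of life.

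The targeted RNA was lower in the libraries labelled mutant. Rnu11 read 614, 576 and 550.3 TPM (a level corrected for gene length and scaled to the library's total) in controls and 196, 393 and 203 TPM in mutants, so no mutant library reached a control. Each library reported between 30113 and 34510 genes above 0. Read numbers cannot be recovered from TPM, and the depth of every value is therefore unknown. Control replicate 2 stood apart from the other controls in cell type markers. The summed level of 10 pachytene spermatocyte markers was 109 TPM in that library, 187 and 181 TPM in the other controls and 108 to 123 TPM in mutants. The summed level of 7 Leydig cell markers was 235 TPM in it, 124 and 137 TPM in the other controls and 246 to 383 TPM in mutants. Without it the log2 difference was −0.52 for Msh4 and −0.44 for Msh5, against −0.43 and −0.38 with it.

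As a group the crossover genes were lower in mutants, Hfm1 by far the most. Hfm1 stood at 46.6% of its control level, and Msh4, Msh5, Tex11, M1ap and Ccnb1ip1 at 70.9% to 85.0%, with no overlap between the groups. Rnf212 overlapped through mutant replicate 3 alone, and Mlh3 was level. So 6 of 8 members were lower with no overlap of the groups, a pattern that 5.77% of the 17959 genes tested showed in this direction, and 14.5% showed in the other direction. The same 6 were apart after median-ratio and protein-coding scaling, where 11.3% and 13.1% of all genes were lower in this way. With 1 library left out, which leaves fewer values to overlap, that share was 9.01% (without control replicate 1), 12.3% (control replicate 2), 7.45% (control replicate 3), 9.51% (mutant replicate 1), 9.35% (mutant replicate 2) and 8.53% (mutant replicate 3). None of the 8 was called (limma, adjusted p under 0.05), and 0.0278% of all genes were, 0.0223% in the lower direction. All 8 passed the filter of a mean of at least 1 TPM, each with more than 1 TPM in every library of both groups. Their median log2 difference was −0.34, on the scale of log2(TPM + 1), beside 0.09 for all genes tested.

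**Figure D1:**
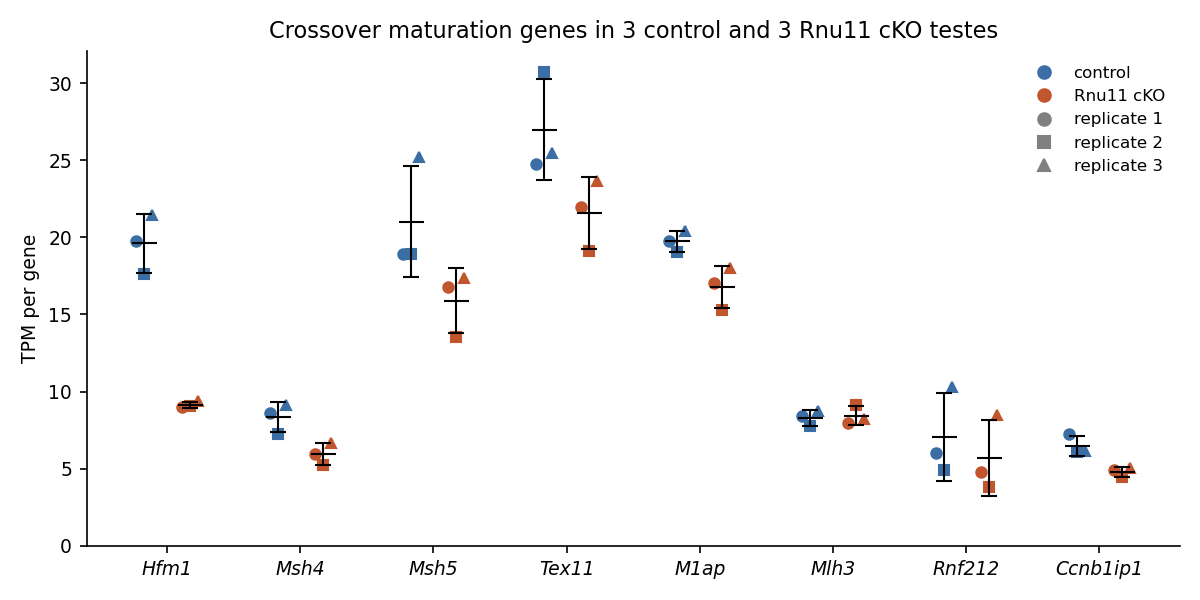
TPM of the 8 genes in each library (vertical axis), with blue for control and orange for Rnu11 cKO, a marker shape for each replicate number, and black bars for the mean and SD of 3 libraries. The 3 mutant values of Hfm1 lie together at 8.996 to 9.37 TPM, under the controls at 17.6 to 21.5 TPM. The groups overlap for Mlh3 and, through mutant replicate 3 alone, for Rnf212.

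Hfm1 encodes the helicase of the group (ENSMUSG00000043410.16, GRCm38 chromosome 5, 106840192 to 106926321, minus strand). It read 19.7, 17.6 and 21.5 TPM in controls and 8.996, 9.06 and 9.37 TPM in mutants. The lowest control was far above the highest mutant, and the mutants lay within a range of under 1 TPM. The means were 19.6 ± 1.94 and 9.14 ± 0.20 TPM (SD, n = 3), a 2.14-fold lower level in mutants. The log2 difference was −1.02 (SE 0.10), and it ran from −1.15 to −0.95 over all alternatives, with −1.09 without control replicate 2. Of 9336 protein-coding genes averaging 5 TPM or more, 7 had a lower log2 difference than Hfm1, among them Cntd1. Of all 10825 genes at that level, coding or not, 87 had a lower one.

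In controls Hfm1 belonged with the more abundant members, and in mutants it did not. Ordered by mean TPM, the control levels ran Tex11, Msh5, M1ap, Hfm1, Msh4, Mlh3, Rnf212 and Ccnb1ip1, and the only break between neighbours was that between Hfm1 and Msh4. In mutants Tex11 stood above M1ap without overlap, M1ap and Msh5 overlapped, and Hfm1 lay apart from Msh5 and overlapped with Mlh3, at 7.93 to 9.12 TPM. Msh4, Rnf212 and Ccnb1ip1 followed, with a break between Mlh3 and Msh4 and overlap between the later neighbours. Hfm1 made up 17.4%, 15.7% and 16.9% of the summed TPM of the 8 genes in controls and 10.2%, 11.4% and 9.68% in mutants. This share does not depend on how a library is scaled.

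Sequence before the start site is a property that the choice of members did not use. The 250 bases before a RefSeq start are given for Hfm1, Msh4 (the member with the next largest difference) and Mlh3 (the member with none). They run 5′ to 3′ on the gene's strand, from RefSeq's GRCm38.p6. Capitals mark matches on either strand to CNCCTCAG, a motif of the meiotic initiator STRA8, or TAACNG, a motif of MYB proteins. TTCCCGC (E2F) and CACGTG (the E-box bound by MGA and MAX) were searched as well, and no match overlapped another in these windows.
Hfm1 (chr5:106925891-106926140, minus strand): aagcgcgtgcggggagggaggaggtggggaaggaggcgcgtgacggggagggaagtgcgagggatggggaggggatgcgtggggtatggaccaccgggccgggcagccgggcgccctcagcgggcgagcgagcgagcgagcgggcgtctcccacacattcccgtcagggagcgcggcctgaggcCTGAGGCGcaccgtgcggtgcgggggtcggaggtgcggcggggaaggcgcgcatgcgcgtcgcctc
Msh4 (chr3:153904892-153905141, minus strand): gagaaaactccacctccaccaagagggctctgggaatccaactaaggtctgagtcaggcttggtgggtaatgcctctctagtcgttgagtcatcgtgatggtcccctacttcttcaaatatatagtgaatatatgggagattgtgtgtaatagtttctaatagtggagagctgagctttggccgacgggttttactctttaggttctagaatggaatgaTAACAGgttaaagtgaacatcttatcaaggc
Mlh3 (chr12:85270600-85270849, minus strand): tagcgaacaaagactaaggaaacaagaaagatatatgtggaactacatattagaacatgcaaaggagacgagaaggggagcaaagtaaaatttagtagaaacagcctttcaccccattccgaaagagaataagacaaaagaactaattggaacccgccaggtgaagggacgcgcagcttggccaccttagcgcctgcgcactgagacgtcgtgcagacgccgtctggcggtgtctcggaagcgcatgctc

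The Hfm1 window lies in the first intron of Hfm1-202 and before the start of Hfm1-201. The Msh4 window lies inside the GENCODE bounds of the gene, before the start of Msh4-205 and in the first intron of Msh4-201. In controls Msh4-205 held 14.0% of the gene and Msh4-201, its main coding isoform, 45.1%, so the window does not describe the start of the main isoform. None of the windows printed touches an exon of its gene. The Hfm1 window was rich in CpG, with 34 CpG pairs against 4 in that of Msh4 and 15 in that of Mlh3. The median over 32851 promoter windows of this length was 6. Of the 7 members with a RefSeq promoter (Tex11 had none in the table), the STRA8 motif was in the windows of Hfm1, M1ap and Msh5, against 6.42% of all windows. G and C made up 75.6%, 62.4% and 67.2% of these windows, against a median of 52.4%, and no share among windows of like composition was taken. The windows of M1ap and Msh5 hold 20 and 46 bases of an exon of their gene. The MYB motif was in those of Msh4 and Ccnb1ip1 (19.8% of all windows), the E2F motif in those of Msh5 and Rnf212 (3.82%), and the E-box in none (6.02%). A match describes letters in the window, not a bound site.

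The lower level of Hfm1 lay in its full-length and short isoforms, while the isoform that keeps an intron overlapped between the groups. Hfm1-201 and Hfm1-202, which span the gene with 40 and 39 exons, together read 13.6, 11.8 and 13.6 TPM in controls and 6.09, 6.33 and 6.04 TPM in mutants. Their sum was 12.99 ± 1.07 TPM in controls against 6.15 ± 0.15 TPM in mutants (SD, n = 3). How this sum was divided between the 2 isoforms varied: Hfm1-202 took 38.4%, 9.34% and 14.9% of the gene's TPM in the mutant libraries. The short isoforms Hfm1-205 and Hfm1-207, which have 10 exons each and cover the first part of the gene, together read 4.76, 4.76 and 6.72 TPM in controls and 1.90, 1.26 and 2.35 TPM in mutants. For both sets all mutant values lay below all control values.

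Hfm1-203 keeps an intron within the first part of the gene and is annotated as a retained-intron transcript. It read 1.30, 1.06 and 1.16 TPM in controls and 0.98, 1.33 and 0.98 TPM in mutants, so the groups overlapped. With the other isoforms lower, its share of Hfm1 was 6.61%, 6.05% and 5.42% in controls and 10.9%, 14.7% and 10.5% in mutants. The means were 6.03% ± 0.59 and 12.02% ± 2.35 (SD, n = 3), and the difference ran from 4.65 to 6.78 percentage points with any 1 library left out. Each mutant lay above each control. A share that was higher in every mutant was found for 5.78% of 35605 isoforms tested, and for 5.14% of 11213 retained-intron isoforms, beside 6.48% of these with a lower share. Of the 33 shares of members tested, 1 was higher in this way (Hfm1-203) and 1 was lower. A lower share was found for 5.90% of all isoforms tested, so such shares were not more common among the members. No isoform share of a member was called by limma, and 0.0112% of all shares were. On simulated data the share fit called 2% of differences of 1 log2 unit and 49% of those of 2 log2 units, so a missing call says little about a difference of this size.

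The ends of the intron kept by Hfm1-203 are shown because minor introns differ from others at the start, in the 6 letters after the first pair. It lies at GRCm38 chr5:106903074-106904225 on the minus strand, is 1152 bases long, and is spliced out in Hfm1-201, Hfm1-202 and Hfm1-207. Bases were read from the GENCODE M21 transcript that covers it, with the terminal pairs in capitals.
Hfm1 intron start: GTaagtatatattataaaaattatg
Hfm1 intron end: gttcaaaataaatatattattttAG
Its first bases GTAAGTAT differ at 4 of the 6 positions after GT from the ATCCTT of minor introns. Of the 189 annotated introns of the 8 genes, the first 8 bases could be read in 17 and the whole intron in 4, and none had the start of a minor intron with at most 1 mismatch. The other introns were not read here, so whether a member holds a minor intron was not tested.

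**Figure D2:**
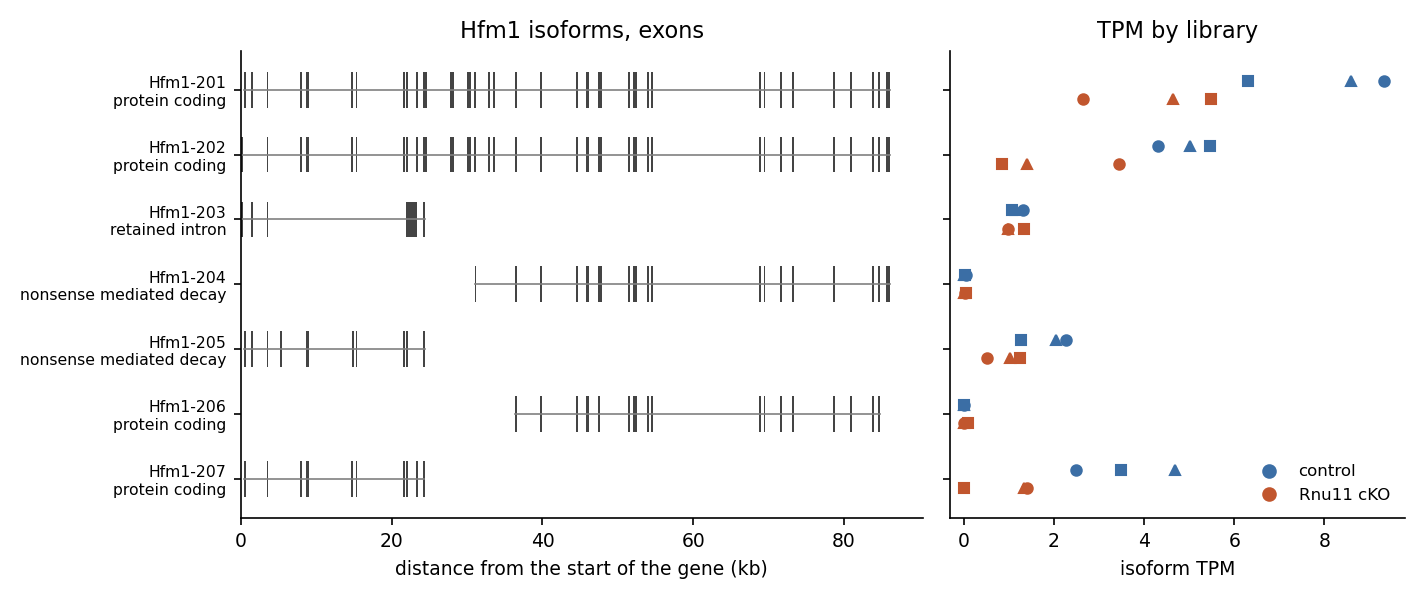
Left, exons (bars) of the 7 annotated Hfm1 isoforms by distance from the start of the gene in kb; right, the TPM of each isoform in the 3 control (blue) and 3 Rnu11 cKO (orange) libraries, with circles, squares and triangles for replicates 1 to 3. The retained-intron isoform Hfm1-203 overlaps between the groups, while Hfm1-201, Hfm1-202, Hfm1-205 and Hfm1-207 do not. For Hfm1-205 the groups nearly touch, with the highest mutant at 1.257 TPM and the lowest control at 1.268 TPM.

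Both genes of the MSH4 and MSH5 clamp were lower. Msh4 (ENSMUSG00000005493.15, chromosome 3, 153857149 to 153906138, minus strand) read 8.64, 7.28 and 9.14 TPM in controls and 5.92, 5.21 and 6.63 TPM in mutants. Msh5 (ENSMUSG00000007035.15, chromosome 17, 35028605 to 35046745, minus strand) read 18.96, 18.92 and 25.2 TPM in controls and 16.8, 13.5 and 17.4 TPM in mutants. The groups did not overlap for either gene. The log2 differences were −0.43 (SE 0.12) for Msh4 and −0.38 (SE 0.15) for Msh5. That of Msh5 was −0.25 without control replicate 3, its highest library. The ratio of Msh5 to Msh4 TPM was 2.19, 2.60 and 2.76 in controls and 2.84, 2.59 and 2.62 in mutants, which overlap. The ratio of Hfm1 to Msh4 was 2.29, 2.42 and 2.35 in controls against 1.52, 1.74 and 1.41 in mutants, with no overlap.

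Isoform shares of the clamp genes overlapped between the groups. Msh4-201, its main coding isoform, held 45.1% ± 1.76 of the gene in controls and 49.0% ± 10.1 in mutants (SD, n = 3). Msh5 is spread over 12 isoforms, of which the 4 annotated as retaining an intron held 36.2% ± 3.47 in controls and 38.7% ± 3.76 in mutants, and its 2 coding isoforms 28.4% ± 0.50 and 24.1% ± 6.37 (SD, n = 3). Of the 9 retained-intron isoforms of members with a testable share, which lie in 4 genes, that of Hfm1 was the 1 whose groups did not overlap. The snoRNA gene Gm24395 lies on the opposite strand across an exon of Msh4. No source used here says how strand was used in quantification.

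Tex11 and M1ap, whose proteins work beside the clamp, were lower by smaller steps. Tex11 (ENSMUSG00000009670.11, chromosome X, 100838648 to 101059667, minus strand) read 24.8, 30.7 and 25.5 TPM in controls and 22.0, 19.1 and 23.7 TPM in mutants. M1ap (ENSMUSG00000030041.9, chromosome 6, 82946902 to 83030309, plus strand) read 19.8, 19.1 and 20.4 TPM in controls and 17.03, 15.3 and 18.0 TPM in mutants. In both genes the highest mutant library stayed just under the lowest control. The log2 differences were −0.31 (SE 0.12) for Tex11 and −0.23 (SE 0.09) for M1ap, which was −0.36 after scaling to protein-coding genes. Control replicate 2 was the highest library for Tex11 and the lowest control for Hfm1, Msh4, Msh5, M1ap, Mlh3, Rnf212 and Ccnb1ip1. Without it the Tex11 difference was −0.21.

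Of the 3 isoforms of Tex11, the most abundant was the one whose groups were apart. Tex11-201 read 16.97, 20.6 and 19.3 TPM in controls and 14.5, 12.2 and 15.9 TPM in mutants, without overlap, and Tex11-203 averaged 6.00 ± 2.25 and 5.82 ± 0.50 TPM (SD, n = 3). Tex11-202 read 2.11, 1.70 and 2.21 TPM in controls and 1.05, 1.21 and 2.42 TPM in mutants, an overlap made by mutant replicate 3 alone. The share of Tex11-201 was 70.5% ± 4.73 in controls and 65.7% ± 1.77 in mutants (SD, n = 3). It was lower in each mutant than in each control, as were 5.90% of all shares tested. The groups nearly touched, with the highest mutant at 67.11% and the lowest control at 67.17%. M1ap was read almost wholly from M1ap-201, at 88.8% ± 3.04 and 89.6% ± 1.24 of the gene (SD, n = 3).

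The RING-finger genes differed from each other in how far the libraries spread. Ccnb1ip1 (ENSMUSG00000071470.4, chromosome 14, 50789248 to 50807732, minus strand) read 7.22, 6.09 and 6.15 TPM in controls and 4.91, 4.44 and 5.07 TPM in mutants, with no overlap and a log2 difference of −0.36 (SE 0.11). Rnf212 (ENSMUSG00000055385.12, chromosome 5, 108729290 to 108774982, minus strand) read 6.03, 4.89 and 10.3 TPM in controls and 4.75, 3.83 and 8.48 TPM in mutants. In each group the library numbered 3 was well above the others, and the log2 difference of −0.28 was smaller than its SE of 0.32. It was −0.01 without control replicate 3 and −0.07 without mutant replicate 2. Leaving out control replicate 2 gave −0.47, and leaving out mutant replicate 3 gave −0.56. With the replicate number as a block the difference was again −0.28, with an SE of 0.095.

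Rnf212 and Ccnb1ip1 each need a remark on their isoforms. The high libraries of Rnf212 were high in Rnf212-201, its shortest isoform (288 nt), at 2.64 and 2.83 TPM against 0 to 0.71 TPM in the other libraries. Rnf212-202 read 0.51, 0.28 and 0.21 TPM in controls and was listed at 0 in all mutants; it was named after its values were seen. The first exon of Ccnb1ip1-202 overlaps Rpph1, an abundant RNA on the same strand that read 9828 to 13141 TPM. Ccnb1ip1-201 starts beyond Rpph1 and held 91.2% ± 5.67 of the gene in controls and 90.4% ± 8.45 in mutants (SD, n = 3). It read 6.41, 5.30 and 6.00 TPM in controls and 4.13, 4.44 and 4.41 TPM in mutants, so the groups were apart without the overlapping isoform too.

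Mlh3, the resolving endonuclease subunit, was the member with a level nearest to control. Mlh3 (ENSMUSG00000021245.15, chromosome 12, 85234520 to 85270599, minus strand) read 8.40, 7.73 and 8.74 TPM in controls and 7.93, 9.12 and 8.25 TPM in mutants. The groups overlapped, and the log2 difference was 0.02 (SE 0.10). The sign depended on scaling, at −0.08 after median-ratio scaling and −0.10 after scaling to protein-coding genes, and it was −0.02 without control replicate 2 and −0.03 without mutant replicate 2. The ratio of Hfm1 to Mlh3 was 2.28 to 2.46 in controls and 0.99 to 1.14 in mutants. Mlh3-202 read 0.71, 0.67 and 0.03 TPM in mutants and at most 0.05 TPM in controls; it too was named after its values were seen.

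Across all 8 genes, 25 isoforms had a mean of at least 1 TPM. Of these, 12 were lower without overlap and none was higher, against 5.17% and 11.6% of 44197 isoforms. None of them was called by limma, beside 0.0136% of all isoforms. They include the main coding isoforms of Hfm1, Msh4, Msh5, Tex11, M1ap and Ccnb1ip1. Estimates for isoforms that share most of their exons depend on how reads were divided among them.

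Genes that act before crossover maturation had negative medians as well, while the medians of resolution and mismatch repair genes lay near 0. Of 79 tested genes in 7 lists of meiotic entry, chromosome structure and recombination, with the 8 members left out, 63 had a negative difference (79.7%, beside 33.6% of all genes) with a median log2 difference of −0.27. None was called over all genes (limma, smallest adjusted p = 0.29), while 35 were lower and 2 higher at an unadjusted p under 0.05, beside 3.98% and 12.1% of all genes. That background turned with scaling: 714 genes were lower and 2176 higher as deposited, 1521 and 1471 after median-ratio scaling, and 1774 and 1227 after protein-coding scaling. Of the 79 genes, 44 were lower and 1 higher after the former and 45 lower and 0 higher after the latter, at an unadjusted limma p under 0.05. The count of 35 became 23 without control replicate 1, 19 without control replicate 3, 23 without mutant replicate 1 and 19 without mutant replicate 2. The groups were apart and lower in 35 genes and apart and higher in Mus81 alone, beside 5.77% and 14.5% of all genes. These lists were written with earlier results of these data known, so their direction is no independent evidence.

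Among the other pro-crossover genes all 5 were below control, with a median of −0.27. Cntd1, a cyclin-like regulator that acts late in crossover designation, read 17.7, 7.57 and 16.8 TPM in controls and 4.77, 6.26 and 7.03 TPM in mutants (log2 difference −1.03, SE 0.31). Its control replicate 2 was close to the mutants, unlike that of Hfm1. Rnf212b, a relative of Rnf212, stood at 6.72 ± 1.37 and 4.30 ± 0.81 TPM, and Shoc1, the XPF-like ZMM protein, at 12.4 ± 0.92 and 10.2 ± 1.64 TPM (SD, n = 3). 1700028K03Rik, the symbol of the SHOC1 partner SPO16 in these tables, stood at 3.79 ± 0.52 and 3.06 ± 0.52 TPM (SD, n = 3).

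Most genes that form breaks or process them were below control, and no difference between lists was tested. Of 12 break formation genes 10 were below control (median −0.40), among them Hormad1 (−0.78), Mei1 (−0.62), Gm960 (−0.58), which encodes the partner of SPO11, and Ankrd31 (−0.52). Of 21 genes of strand invasion 17 were below control (median −0.31), with Meiob (−0.66), Rad51ap2 (−0.51), Rad54b (−0.48) and Tex15 (−0.48) named by their p-values. Of 12 synaptonemal complex and cohesin genes 10 were below control (median −0.38), and all 7 of meiotic entry (median −0.34).

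For the 17 genes of crossover resolution and dissolution, 11 were below control and the median was −0.06. Fignl1, an ATPase that limits strand invasion, stood at 21.1 ± 2.14 and 14.8 ± 0.42 TPM (log2 difference −0.48, SE 0.10), and Blm, the dissolving helicase, at 24.3 ± 0.97 and 21.03 ± 0.45 TPM (SD, n = 3). The nuclease gene Mus81 was higher, at 11.8 ± 0.95 and 15.0 ± 1.85 TPM (SD, n = 3). Among 6 mismatch repair genes 3 were below control (median −0.02), among them Pms2 (−0.29) and Msh6 (−0.24) without overlap, while Msh3 stood at 0.26. None of these genes passed limma's test over all genes.

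**Figure D3:**
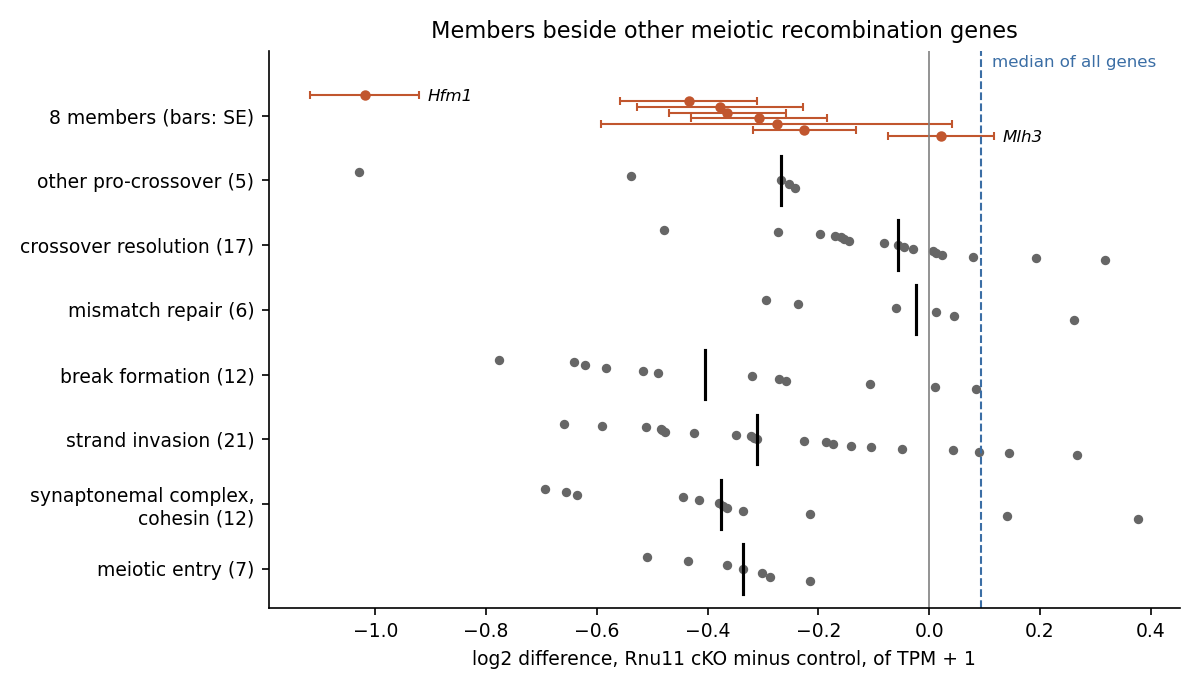
Log2 difference of TPM + 1, Rnu11 cKO minus control, for the 8 members (orange, bars are the SE) and for the tested genes of 7 lists (grey, black line is the list median, number of genes in brackets; 1 gene is in both the resolution and the mismatch repair list). Hfm1 at −1.02 and Cntd1 at −1.03 lie apart from the rest, and the dashed line is the median of all genes tested, 0.09.

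Set against these related genes within each library, Hfm1 was the member that remained apart. The median log2(TPM + 1) of the 79 genes was 3.96, 3.86 and 4.04 in controls and 3.90, 3.69 and 3.72 in mutants. Hfm1 minus this median was 0.42, 0.36 and 0.45 in controls and −0.58, −0.36 and −0.34 in mutants, above it in the former and below it in the latter. The other 7 members overlapped between the groups on this scale. Their mean differences ran from −0.25 for Msh4 to 0.20 for Mlh3, and that of Hfm1 was −0.84. Some of the related genes, among them Smc1b, Mei1 and Gm960, were apart and lower on this scale too. How many of all genes are apart on it was not counted. Because Hfm1 was chosen for its difference, this is a description.

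**Figure D4:**
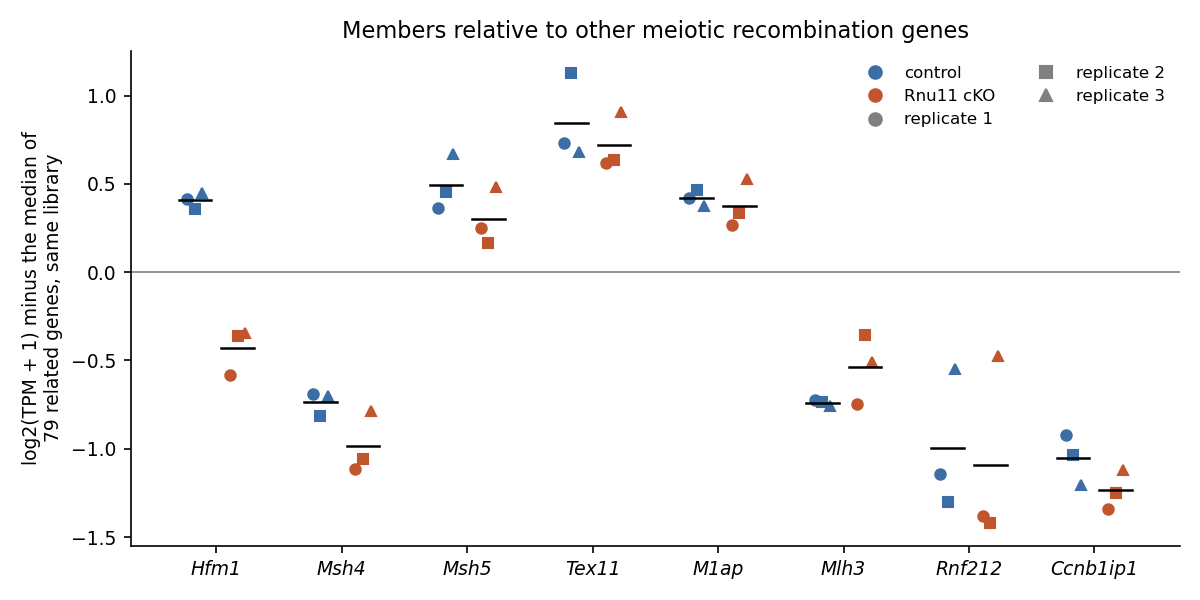
Level of each member as log2(TPM + 1) minus the median of 79 related genes in the same library, with blue for control, orange for Rnu11 cKO, a marker shape for each replicate number and black lines for group means. Hfm1 lies above 0 in the 3 controls and below 0 in the 3 mutants; the other genes overlap.

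The genes whose pattern over the 6 libraries was most like that of Hfm1 were Gm10184, Pde6d, Ift80, Cep126 and Taf9. Likeness was the root mean square difference of centred log2(TPM + 1), and it was 0.14, 0.15, 0.18, 0.19 and 0.20 for these, out of 9335 protein-coding genes averaging 5 TPM or more. Pde6d read 34.3, 31.7 and 38.2 TPM in controls and 21.1, 19.5 and 21.01 TPM in mutants. No member was as close: Msh4 was the nearest at 0.30, and Mlh3 the farthest at 0.52. This distance includes the difference between the groups, on which the members were selected, so it is no separate evidence of likeness or unlikeness. The mean profile of the other 7 members was met most closely by Rbpms2 (0.02), Cystm1 (0.03), Larp7 (0.05), Parp12 (0.05) and Ptbp2 (0.05), whose log2 differences were −0.34 to −0.25.

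Markers of the somatic cells were higher in the same mutant libraries. All 12 Sertoli cell markers were above control in mean, 7 of them without overlap, with sums of 1741 to 1994 TPM in controls and 2415 to 3089.5 TPM in mutants. All 7 Leydig markers were above control, 4 without overlap. Of all genes tested, 14.5% were higher and 5.77% lower without overlap, and 33.6% had a lower mean in mutants, so a higher mean was the common direction. The germ cell genes Dazl and Ddx4, taken from the meiotic entry list, were at 77.6% and 69.5% of control. Msh4, Msh5 and Ccnb1ip1 lay in that range, while Hfm1 was at 46.6%. The 8 pachytene markers tested stood at 39.6% (Adam2) to 95.7% (Mybl1) of control, a range that holds Hfm1. All 8 pachytene markers tested were below control, 1 without overlap, and of 9 markers of undifferentiated spermatogonia 3 were below and 6 above. The summed level of the latter was 60.6 to 73.8 TPM in controls and 69.6 to 73.8 TPM in mutants. In whole tissue, fewer cells of a type and less RNA per cell cannot be told apart, and the part of cell make-up in these results was not tested.

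The remaining marker lists were of macrophages, endothelium, peritubular myoid cells, red blood cells, epididymis and round spermatids. Macrophage markers (5 of 5 above control) summed to 23.4 to 37.4 TPM in controls and 33.2 to 47.2 TPM in mutants, endothelial markers (5 of 5) to 17.2 to 20.9 and 18.95 to 26.9 TPM, and peritubular myoid markers (3 of 5) to 167 to 232 and 199.99 to 241 TPM. Red blood cell markers summed to 11.05 to 12.5 TPM in controls and 15.9 to 28.3 TPM in mutants. Over all libraries the epididymis sum was 2.14 to 4.38 TPM and the round spermatid sum 4.39 to 5.83 TPM, with 1 marker of each list at 0 in every library. Of the 10 round spermatid markers, 7 were under 1 TPM in every library.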

How the data were processed

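RNA of whole testes was profiled in 3 control and 3 Rnu11-cKO mice, per the labels' protocols. Per the submitters' processing notes the aligner was HISAT2 and the build GRCm38. No quantifier or annotation release is named in the sources used here. For every library the authors deposited TPM values of genes and isoforms, and they deposited a table of log2 fold changes that was not used for results. Each library was taken as 1 animal, from the wording of the design text.

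Genes and isoforms with a mean of at least 1 TPM were fitted with limma 3.58.1 in R 4.3.3 on log2(TPM + 1), with trend and two-sided tests, and p-values were adjusted by Benjamini-Hochberg (threshold 0.05). Isoform shares were fitted as the log2 ratio of an isoform to the other isoforms of its gene, each with 0.1 TPM added, for genes of at least 5 TPM and mean shares of 5% to 95%. The smallest p of an exact permutation test on 3 against 3 libraries is 0.1. Tested on simulated data over 17959 genes, this fit called 69% of true differences of 1 log2 unit and 93% of those of 2 log2 units; the isoform fit called 18% and 78% over 44197 isoforms, and the share fit 2% and 49% over 35605. The members, lists and rules were chosen with earlier results of these data known. Named genes were the members, isoforms of at least 0.5 TPM or 10% of their gene, up to 4 genes per list by unadjusted p, and the 5 nearest patterns; the genes overlapping members fall outside this rule, and the isoforms so marked were named after their values were seen. Positions and isoforms follow GENCODE M21 (GRCm38). Tables and plots were made in Python 3.11.15 (pandas 2.3.3, matplotlib 3.10.9). Alternatives were another pseudocount, other filters, median-ratio or protein-coding scaling, no trend, a replicate block and each library left out.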

Additional observations from a re-analysis of the deposited data

How the results depend on the processing

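The median difference of the 8 members was −0.46 after scaling to protein-coding genes and −0.42 to −0.25 with 1 library left out. These scalings moved the median of all genes from 0.09 to −0.03 (protein-coding) and 0.00 (median-ratio). With 1 library left out, 6 to 7 members were apart and lower, Rnf212 being the addition without mutant replicate 3. Gene calls over all genes numbered 5, and became 8 with a pseudocount of 0.1, 3 with a filter of 5 TPM, 3 under either scaling, 3 without trend, 0 with no filter and 4 to 9 with 1 library left out (9 without control replicate 3). With no filter 1221 genes were lower and 2660 higher at an unadjusted limma p under 0.05. Isoform calls went from 6 to 11 with a pseudocount of 0.1 and, with 1 library left out, to between 3 (without mutant replicate 3) and 11 (without control replicate 1), with 10 without control replicate 2 or mutant replicate 2. Isoform share calls, 4 in all, became 2 without control replicate 2 and 9 without mutant replicate 1. At an unadjusted limma p under 0.05, the 714 lower and 2176 higher genes became 449 and 1115 without control replicate 1, 1071 and 2692 without control replicate 2, 380 and 958 without control replicate 3, 511 and 1106 without mutant replicate 1, 461 and 845 without mutant replicate 2, and 627 and 3663 without mutant replicate 3. With the replicate number as a block, no gene, isoform or share was called (0 each; 759 genes lower and 2663 higher at an unadjusted limma p under 0.05), and the members' differences were the same. The deviations of same-numbered libraries correlated at −0.07, 0.04 and 0.08, and not every library correlated best with its own number. With so few libraries, these values cannot decide whether the numbers pair the samples. The 79 related genes held no limma call under any of these settings, with 19 to 45 lower at an unadjusted p under 0.05. The causes were not tested. Without depth, the precision of low isoforms is unknown.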
